A study of Mus musculus with 24 samples.

Results

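Lysosomal hydrolases are soluble enzymes that break down macromolecules in the acidic lumen of the lysosome, and their cofactors present substrates to them or activate them. The set described here holds 35 such genes of 54532 genes in the deposited count table, taken by gene symbol from a list that leaves the cathepsins out. They were grouped by substrate into 14 genes for glycans, 8 for sphingolipids, 5 for other lipids, 4 for proteins and 4 for phosphates and nucleic acids. RNA-seq was done on the retinal pigment epithelium (RPE) of wild-type 129S1/SvlmJ mice with the Leu450 form of Rpe65, which all groups share. The mice were on a standard diet in 12 h of light and 12 h of dark, with light onset at 7 am. Ages are not stated in the labels used here. The groups are 0, 1, 3, 5, 6, 9, 15 and 16 h after light onset, with 3 mice each and 24 libraries in all, and they were collected to study daily regulation of autophagy and lysosomal genes. Mice of 1 to 9 h were taken in the light phase (day), and mice of 15 h and 16 h in the dark (night).

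RPE cells take up the tips that photoreceptor outer segments shed each day, shortly after light onset in mice, and digest them in lysosomes. Outer segments are rich in phospholipid, glycosphingolipid and glycosylated protein, so that glycosidases, sphingolipid hydrolases, lipases and proteases all have substrate in this cell. Most of these enzymes reach the lysosome through the mannose 6-phosphate route, and inherited loss of many of them causes a lysosomal storage disease. Many of their genes are known targets of the MiT/TFE transcription factors, which bind an E-box in their promoters.

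Libraries held 14073440 to 17492470 counts. A pair of libraries, from mouse 3 of 15 h and mouse 3 of 6 h, lay at 140.3 and 41.4 on the first principal component, against -19.3 to -1.13 for the other 22. Their ribosomal protein genes took 5.02% and 2.30% of counts, against 1.12% to 1.62% elsewhere. Each result is therefore given with all 24 libraries and with the 22 others, in which 6 h and 15 h have 2 mice each. All 10 RPE markers were detected, with a summed level of 35993 to 51935 CPM (read counts relative to library size, TMM-scaled) in the 22 libraries. Markers of macrophages, endothelium, fibroblasts, mast cells and rods were detected too, so the samples held RNA of other cell types. As a check of the time labels, 7 of 7 clock genes varied over time in both sets of libraries.

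All 35 genes passed the filter on low counts in both sets, and the lowest count of any of them was 83 in 1 library. Sequence windows show which of them carry the motifs known for lysosomal and pigment cell genes. The RefSeq promoter table (GRCm38.p6, 250 bases before to 50 after each start) held 40 promoters of 32 of the 35 genes, and none for Aga, Asah1 and Galns. The E-box CACGTG, searched on both strands, was in 7 of the 40 (17.5%) and in 7.15% of all 32817 promoters. Its extension GTCACGTG, a motif chosen after the sequences had been seen and overlapping the E-box, was in 6 of the 40 (15.0%) and in 2.24% of all. The full palindrome TCACGTGA, which also overlaps the E-box, was in 1 (Gla) and in 0.975% of all. The E-box of Lgmn was in 1 of its 2 promoters. The windows of 30 bases are shown 5′ to 3′ on the strand of the gene, with the E-box in capitals.
Arsa, chr15:89477423-89477452, minus strand: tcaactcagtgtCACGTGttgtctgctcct
Gaa, chr11:119267811-119267840, plus strand: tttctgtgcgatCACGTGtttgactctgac
Gla, chrX:134601215-134601244, minus strand: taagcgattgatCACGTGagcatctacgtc
Gla, chrX:134601182-134601211, minus strand: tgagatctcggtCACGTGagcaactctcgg
Glb1, chr9:114401018-114401047, plus strand: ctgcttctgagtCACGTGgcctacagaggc
Lgmn, chr12:102439124-102439153, minus strand: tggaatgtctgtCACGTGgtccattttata
Naglu, chr11:101070009-101070038, plus strand: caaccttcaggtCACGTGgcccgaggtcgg
Sgsh, chr11:119355522-119355551, minus strand: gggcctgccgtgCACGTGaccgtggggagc

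The M-box TCATGTGA, a motif bound by MITF in pigment cell genes, was in 5 of the 40 promoters (12.5%) and in 0.987% of all, again on both strands. It is in capitals in these windows, where TCACATGA is the same motif read on the other strand. The Tpp1 windows overlap each other, and the Gla window overlaps its E-box windows. The M-box of Acp5 was in 1 of its 3 promoters, and that window lies inside the gene (chr9:22126727-22135711).
Acp5, chr9:22130672-22130701, minus strand: gaagtccagtgcTCACATGAcccaagggga
Gla, chrX:134601199-134601228, minus strand: tgagcatctacgTCATGTGAgatctcggtc
Grn, chr11:102430284-102430313, plus strand: atgattctctaaTCACATGAtccctagaaa
Ppt1, chr4:122836228-122836257, plus strand: cagtccccgcggTCATGTGAttgctaagat
Tpp1, chr7:105752214-105752243, minus strand: gccagaccatgcTCATGTGActtatcacat
Tpp1, chr7:105752202-105752231, minus strand: tcatgtgacttaTCACATGActacagatca
The D-box TTATGTAA and the ROR element were in none of the 40 and in 0.935% and 0.219% of all promoters. At shares this low, none in 40 promoters does not set these genes apart from all genes. A match is a string of letters in a window and does not show binding.

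The genes together made up 1.24% of the counts for mouse 3 of 6 h and 0.997% for mouse 3 of 15 h, against 1.07% to 1.21% in the other 22 libraries. Most of this was Psap, the precursor of the saposins that activate sphingolipid hydrolases (chr10:60277627-60302597 in the deposited table), which alone took 0.598% to 0.728% in the 22. Per kilobase of deposited gene length, levels over the 22 libraries spanned 1202-fold, with Psap highest at 2453 ± 147 CPM per kb (SD, n = 22) and Galc, the galactosylceramidase, lowest at 2.04 ± 0.14.

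**Figure D1:**
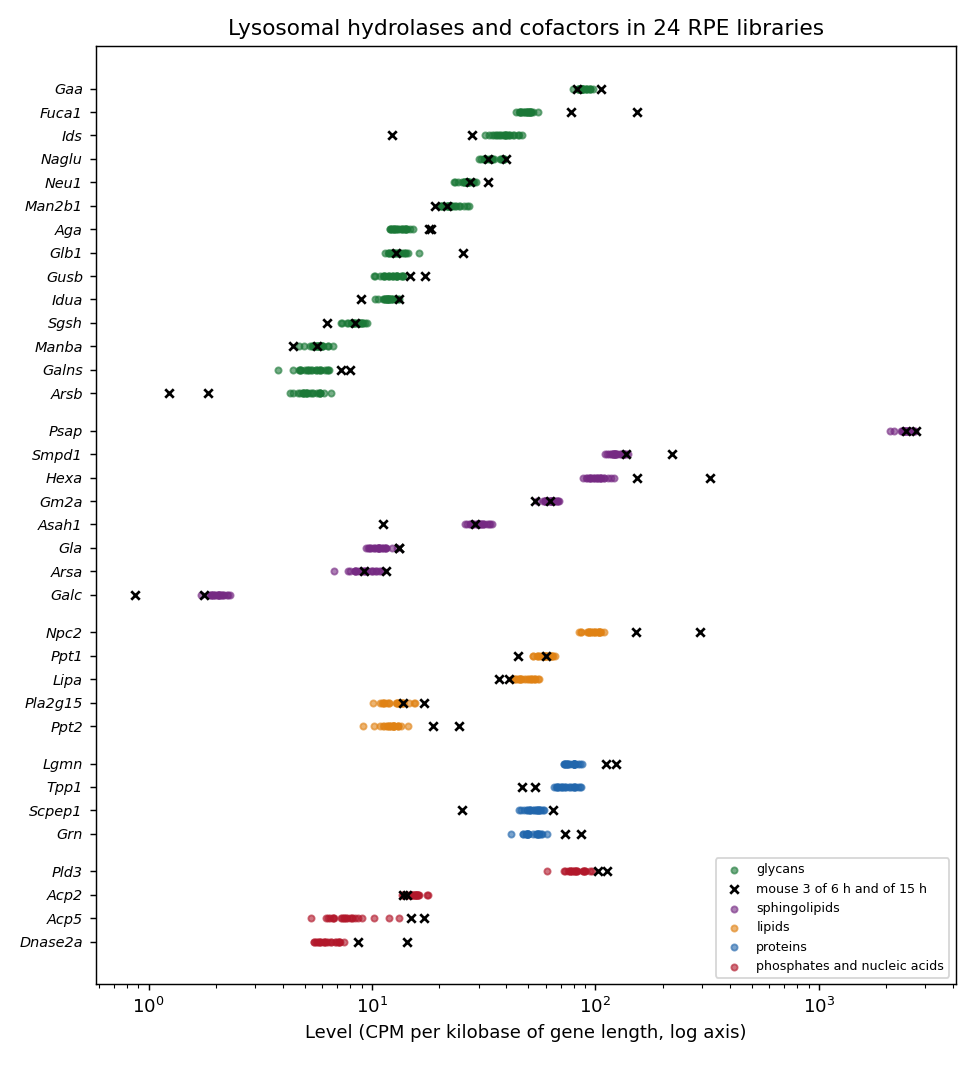
Level of each gene (CPM per kilobase of gene length, log axis) in 24 RPE libraries, grouped by substrate; each point is 1 mouse and crosses are mouse 3 of 6 h and of 15 h. Psap stands at 2453 CPM per kb in the mean of 22 libraries, above all other genes shown, and Galc at 2.04 stands lowest.

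The other sphingolipid genes lay between these ends. Smpd1, acid sphingomyelinase, had 124 ± 8.15 CPM per kb and Hexa, the alpha subunit of beta-hexosaminidase, 102 ± 8.83 (SD, n = 22). Gm2a, the ganglioside activator protein, followed with 62.7, then Asah1, acid ceramidase, with 30.1. The enzymes that remove galactose and sulfate from glycolipids were low, with 10.8 CPM per kb for Gla and 9.27 for Arsa. Among genes for other lipids, Npc2, the luminal carrier of cholesterol, was highest at 97.5 ± 6.87 CPM per kb. Next came the palmitoyl-protein thioesterase Ppt1 at 59.3 and Lipa, lysosomal acid lipase, at 48.7. The lysosomal phospholipase Pla2g15 (12.7) and the thioesterase Ppt2 (12.1) differed by less than the SD of either, 1.47 and 1.14. The level of Lipa per kilobase rests on a deposited length of 2969 bases, against 6780 exonic bases in GENCODE vM21. For the other 34 genes the lengths are the same in both.

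The glycan genes spanned 5.27 (Arsb, arylsulfatase B) to 88.2 CPM per kb (Gaa, the acid alpha-glucosidase that degrades glycogen). In descending order between them stood the fucosidase Fuca1 (49.1), the iduronate sulfatase Ids (39.2), the heparan sulfate enzyme Naglu (34.4), the sialidase Neu1 (26.4) and the alpha-mannosidase Man2b1 (22.9). Aga, which cleaves the asparagine link of glycoproteins, was at 13.3 CPM per kb, the beta-galactosidase Glb1 at 12.995, the beta-glucuronidase Gusb at 12.2 and the iduronidase Idua at 11.8. Each of these 4 lay within 1 SD of its neighbour in this order (SDs of 0.936, 1.11, 1.07 and 0.688 CPM per kb). Sgsh, heparan N-sulfatase, had 8.45 CPM per kb, the beta-mannosidase Manba 5.72 and the sulfatase Galns 5.38. The protein genes lay close together. The legumain gene Lgmn had 78.2 CPM per kb, the tripeptidyl peptidase gene Tpp1 74.7, the carboxypeptidase gene Scpep1 53.0 and the progranulin gene Grn 52.1. Of the phosphate and nucleic acid genes, the exonuclease gene Pld3 was highest at 81.6 ± 8.06 CPM per kb. The acid phosphatase Acp2 had 15.5, the tartrate-resistant phosphatase Acp5 7.96 ± 1.84 and the acid endonuclease Dnase2a 6.33.

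Variation over the 8 times was tested with edgeR's quasi-likelihood F test, adjusted by Benjamini-Hochberg over all genes tested. A shape with a 24 h period was tested by the same method on a cosine and a sine term. With all 24 libraries, none of the 35 genes was called (adjusted p under 0.05) in either test, while over all genes the calls came to 1.08% over time and 1.67% for the 24 h shape. At an unadjusted p under 0.05 there were 5 and 7 of the 35, against 17% and 16.1% of all genes. DESeq2 on the same libraries called 2 over time (Lipa, adjusted p = 0.0487, and Acp5, 0.0470). It called 2 with a 24 h component (Acp5, 0.00854, and Pld3, 0.0160), and limma-voom called none. Over all genes, DESeq2 also called more than edgeR in both tests, in the 24 and in the 22 libraries. The numbers are given in the section on processing.

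In the 22 libraries, 4 of 35 genes varied over time (15.6% of all genes did) and 4 of 35 had a 24 h component (6.12% of all genes). Both shares rest on 4 genes, below the background over time and above it for the 24 h component. The genes called over time were Acp5, Pld3, Pla2g15 and Lipa, and those with a 24 h component were Acp5, Dnase2a, Pld3 and Lipa. None of the 14 glycan, 8 sphingolipid or 4 protein genes passed either test. At an unadjusted p under 0.05 there were 13 of 35 over time (30.5% of all genes) and 15 of 35 with a 24 h component (20.3%).

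The changes over time were small for most of the set. Between the highest and the lowest time mean of the 22 libraries, the log2 difference was under 0.35 for 31 of the 35 genes. It ran from 0.14 for Fuca1 to 0.90 for Acp5, followed by Pla2g15 with 0.49, and its median was 0.26, against 0.51 over all genes tested. The 9 h mean was the highest of the 8 for 11 of the 35 genes and the lowest for 5. The 0 h mean was the lowest for 10 and the highest for 3. These times were not counted over all genes. The fitted peak lay between 6 h and 11 h for 20 of 35 genes (57.1%), against 28.3% of all genes tested, and in the 24 libraries for 15 of 35 (42.9%), against 20.4%. Most of these fitted peaks belong to genes that did not pass the test.

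**Figure D2:**
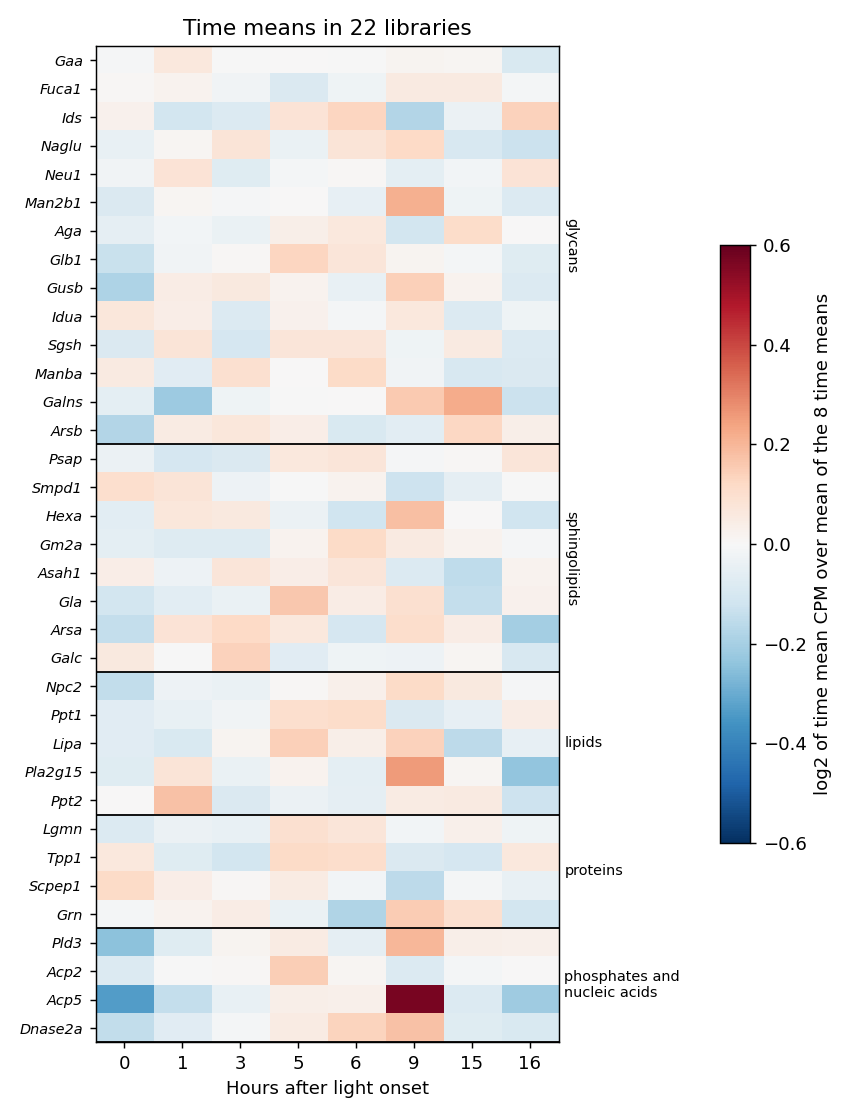
Mean CPM at each time in 22 libraries, as log2 over the mean of the gene's 8 time means, for 35 genes grouped by substrate and sorted by level per length. Acp5, with a log2 range of 0.90, has the strongest colours, high at 9 h and low at 0 h, and 31 of the 35 genes have a range under 0.35.

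Among the genes for phosphates and nucleic acids, 3 of 4 had a 24 h component in the 22 libraries (6.12% of all genes), a share that rests on 4 genes. All 4 had their lowest mean at 0 h, which was not counted over all genes. Acp5 encodes tartrate-resistant acid phosphatase, best known from osteoclasts and macrophages (chr9:22126727-22135711, minus strand, GRCm38). In CPM, the mice of 0 h had 10.8, 12.7 and 14.9, those of 1 h had 16.6, 13.7 and 13.5, those of 3 h had 16.99, 13.6 and 16.3, and those of 5 h had 15.6, 17.5 and 16.5. Mice 1 and 2 of 6 h had 18.2 and 14.7, those of 9 h had 24.3, 26.9 and 20.7, mice 1 and 2 of 15 h had 15.3 and 15.2, and those of 16 h had 15.6, 13.2 and 12.9. The 3 mice of 9 h lay above the other 19 libraries, and the mice of 0 h and 16 h were at the low end. The mean was 23.9 ± 3.13 CPM at 9 h and 12.8 ± 2.04 CPM at 0 h (SD, n = 3 each). Acp5 varied over time with an adjusted p of 0.00121 by edgeR, and the fitted 24 h curve had a peak 0.85 ± 0.19 above its trough (log2, SE by jackknife), with its maximum at 9.02 ± 0.40 h and an adjusted p of 0.000912. Both calls were made in all 29 alternatives tried. Mouse 3 of 6 h had 34.6 CPM and mouse 3 of 15 h 30.4 CPM, above all other libraries. With both included, this difference was 1.00 ± 0.22 and the adjusted p 0.0543.

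The summed level of the 16 macrophage markers was 2953 to 3347 CPM in the 3 mice of 9 h, against 2334 to 2932 CPM in the other 19 of the 22 libraries, with no overlap. Most of that sum was Lyz2, with 1789 ± 214 CPM at 9 h (SD, n = 3), where the other 19 libraries had 1045 to 1607 CPM. Of the 16, 8 had their highest mean at 9 h, while Mrc1 had 13.7 ± 1.62 CPM at 9 h, within its range of 11.7 to 19.7 CPM in the other 19, and Csf1r 564 ± 24.4 CPM, within 496 to 686 CPM. The sum was 4065 CPM in mouse 3 of 6 h and 3779 CPM in mouse 3 of 15 h. Of the 16, 7 varied over time in the 22 libraries, against 15.6% of all genes. Their fitted peaks lay at 8.33 h (Cd68), 9.37 h (Tyrobp) and 9.74 h (Lyz2), and at 3.14 h (Cx3cr1), 3.95 h (Fcer1g), 6.02 h (Ptprc) and 12.2 h (C1qc), and Cd68 alone of the 7 was called for the 24 h component. The 9 endothelium markers summed to 821 to 1261 CPM at 9 h, against 504 to 1063 CPM in the other 19, and all 9 had their highest mean at 9 h. Mast cell markers had it there in 5 of 7 (143 to 180 CPM summed, against 120 to 184 CPM) and red blood cell markers in 4 of 5 (1037 to 1925 CPM, against 399 to 1899 CPM). The mast cell marker Kit went the other way, with 36.8, 47.4 and 50.4 CPM at 9 h and 84.3, 80.4 and 83.2 CPM at 0 h. Its 24 h component was called in the 22 libraries, with a fitted peak at 21.6 h (edgeR adjusted p = 0.000185). Of the 7 mast cell markers, 5 varied over time in the 22 libraries (15.6% of all genes) and 4 were lower at night (1.89% of all genes), the direction of the difference in Lipa. Col1a1 and Col3a1, of 7 fibroblast markers, and Cx3cr1, of 16 macrophage markers, were lower at night too. Higher at night (2.75% of all genes) were Rpe65, of 10 RPE markers, and Sox10, of 7 melanocyte and Schwann markers. Their log2 differences were 0.19 (edgeR adjusted p = 0.0329) and 0.22 (0.00318). The highest mean was at 9 h for 2 of 10 RPE, 1 of 7 fibroblast and 0 of 12 rod markers. The share of all genes with their highest mean at 9 h was not counted. In the 22 libraries, 4 of 9 endothelium and 5 of 7 fibroblast markers varied over time (15.6% of all genes). So did 2 of 7 melanocyte and Schwann, 1 of 12 rod and 0 of 5 red blood cell markers. Rod markers summed to 2543 to 3972 CPM at 0 h and 455 to 1048 CPM at 9 h. Of them, 4 had a 24 h component (6.12% of all genes), and 4 RPE markers varied over time (15.6%). The part of these cells in the level of Acp5, of Lipa or of any other gene that was highest at 9 h or lower at night was not tested. In bulk samples, fewer cells of a type and less RNA per cell cannot be told apart.

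Pld3 encodes a lysosomal exonuclease of single-stranded nucleic acid (chr7:27532000-27553218, minus strand). In CPM, the mice of 0 h had 178, 212 and 214, those of 1 h had 236, 224 and 221, those of 3 h had 262, 236 and 226, and those of 5 h had 257, 243 and 241. Mice 1 and 2 of 6 h had 226 and 234, those of 9 h had 282, 264 and 276, mice 1 and 2 of 15 h had 231 and 259, and those of 16 h had 243, 258 and 230.0. The 0 h libraries were the lowest 3 of the 22 and the 9 h libraries the highest 3, with 264 CPM in the lowest of 9 h and 262 CPM in mouse 1 of 3 h. Pld3 varied over time (edgeR, adjusted p = 0.00943) and had a 24 h component of 0.35 ± 0.09 on the log2 scale (adjusted p = 0.0137), with a fitted peak at 10.1 ± 0.59 h, in the span between 9 h and 15 h where no mouse was sampled. Without the 0 h mice the adjusted p-values were 0.0887 and 0.184. Mouse 3 of 6 h had 301 CPM and mouse 3 of 15 h 330.3 CPM, and with them the 24 h component was 0.41 ± 0.09 (adjusted p = 0.0841).

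Dnase2a encodes the acid endonuclease that digests DNA of engulfed cells (chr8:84908560-84922915, plus strand). In CPM, the mice of 0 h had 29.5, 30.3 and 32.7, those of 1 h had 32.8, 31.1 and 34.1, those of 3 h had 37.9, 33.3 and 30.5, and those of 5 h had 38.7, 31.9 and 35.5. Mice 1 and 2 of 6 h had 36.8 and 38.3, those of 9 h had 40.3, 38.4 and 37.2, mice 1 and 2 of 15 h had 35.5 and 29.6, and those of 16 h had 33.5, 31.2 and 31.5. The mice of 9 h were at the high end and overlapped those of 3, 5 and 6 h. Its 24 h component was 0.37 ± 0.06 on the log2 scale with a fitted peak at 8.48 ± 0.64 h (edgeR, adjusted p = 0.0128), while the test over time gave an adjusted p of 0.107. The adjusted p of the 24 h component was 0.0702 without the 0 h mice and 0.0552 without those of 15 h and 16 h. Mouse 3 of 6 h had 46.8 CPM and mouse 3 of 15 h 77.2 CPM, and with them the adjusted p was 0.344. Of the exonic bases of Dnase2a, 30% are shared with Mast1 on the opposite strand, and the library kit does not mark strand, so reads there cannot be assigned. Acp2, lysosomal acid phosphatase, passed neither test, with 88.8 ± 4.95 CPM at 5 h and 75.7 ± 4.64 CPM at 0 h, its highest and lowest means.

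**Figure D3:**
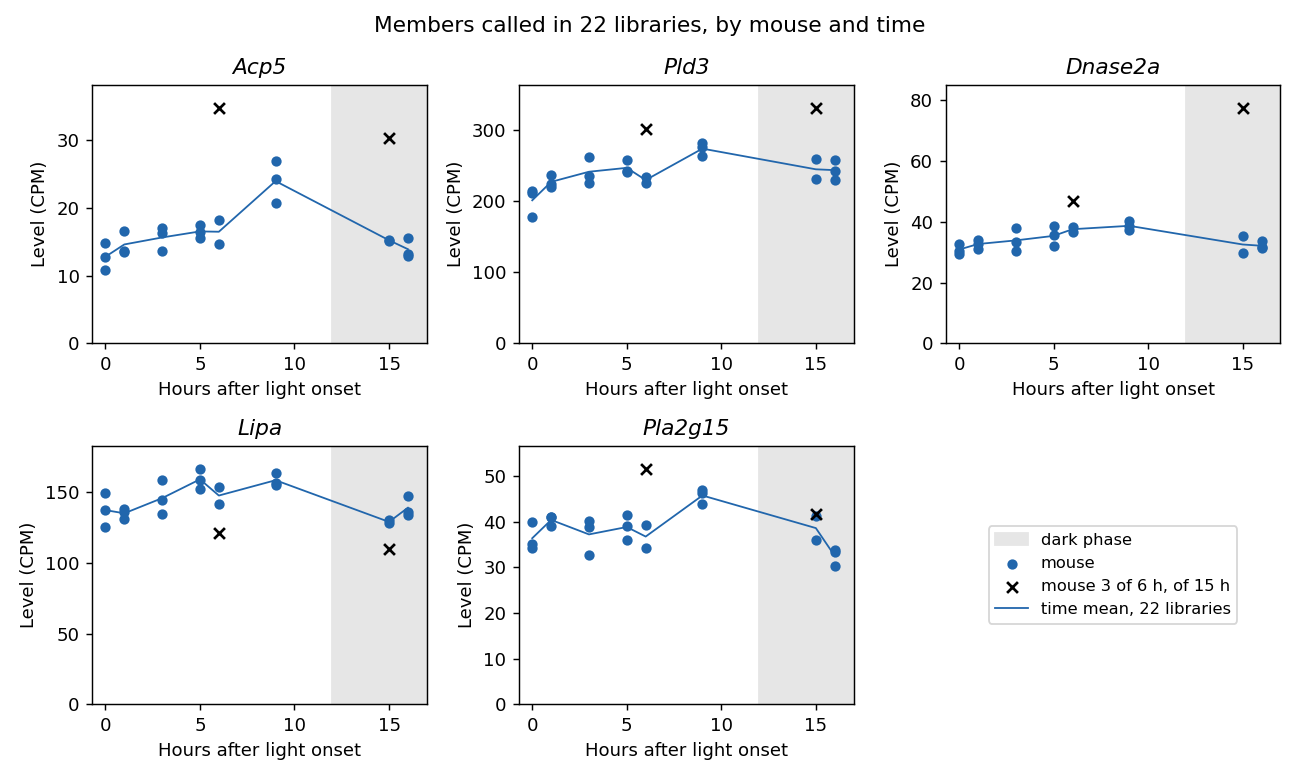
Level (CPM, axis from 0) by hours after light onset for the 5 genes called in 22 libraries; points are mice, the line joins the time means of 22 libraries, crosses are mouse 3 of 6 h and of 15 h, and grey marks the dark phase. Acp5, Pld3 and Pla2g15 have their 3 highest points of the 22 libraries at 9 h, and the crosses lie above the points of the same time for Acp5, Pld3, Dnase2a and Pla2g15 and below them for Lipa.

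Of the 5 genes for other lipids, Lipa and Pla2g15 varied over time in the 22 libraries (15.6% of all genes). Lipa had a 24 h component (6.12% of all genes). Lipa encodes the acid lipase that hydrolyses cholesteryl esters and triglycerides (chr19:34492318-34527474, minus strand). In CPM, the mice of 0 h had 149, 126 and 137, those of 1 h had 138, 131 and 136, those of 3 h had 145, 135 and 159, and those of 5 h had 153, 159 and 166. Mice 1 and 2 of 6 h had 154 and 142, those of 9 h had 157, 155 and 164, mice 1 and 2 of 15 h had 128 and 130.1, and those of 16 h had 136, 134 and 148. The mice of 5 h and 9 h lay at the high end, with 153 to 166 CPM, and those of 15 h at the low end. Lipa varied over time with an adjusted p of 0.0227 by edgeR, and its 24 h component was 0.30 ± 0.06 on the log2 scale with a fitted peak at 7.78 ± 0.73 h (adjusted p = 0.0148). The call over time was lost without mouse 2 or 3 of 5 h, mouse 1 or 3 of 9 h, or mouse 1 or 2 of 15 h, with adjusted p up to 0.0712. Without 15 h and 16 h the adjusted p was 0.102 over time and 0.0917 for the 24 h component. Mouse 3 of 6 h had 121 CPM and mouse 3 of 15 h 110.3 CPM, the lowest 2 of all 24, and with them the adjusted p-values were 0.234 and 0.241.

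Pla2g15 encodes the lysosomal phospholipase that deacylates phospholipids (chr8:106150399-106164715, plus strand). In CPM, the mice of 0 h had 35.1, 34.3 and 39.8, those of 1 h had 41.1, 41.1 and 39.0, those of 3 h had 40.2, 38.8 and 32.7, and those of 5 h had 41.5, 39.1 and 35.97. Mice 1 and 2 of 6 h had 34.1 and 39.4, those of 9 h had 47.1, 46.3 and 44.0, mice 1 and 2 of 15 h had 41.3 and 35.9, and those of 16 h had 33.5, 33.7 and 30.3. The 3 mice of 9 h were above the other 19 libraries and the 3 of 16 h were among the lowest. Pla2g15 varied over time with an adjusted p of 0.0216 by edgeR, while its 24 h curve, at 0.30 ± 0.12, was not called (adjusted p = 0.194). The call over time was lost without mouse 1 or mouse 2 of 9 h or mouse 3 of 16 h, with adjusted p up to 0.0824, and without 15 h and 16 h (0.115). Mouse 3 of 6 h had 51.5 CPM and mouse 3 of 15 h 41.6 CPM, and with them the adjusted p over time was 0.284.

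The remaining lipid genes did not pass by edgeR. Npc2 had 459 CPM at the lowest, 532 at the median and 594 at the highest of the 22 libraries, with 576 ± 14.8 CPM at 9 h and 480 ± 18.9 CPM at 0 h (SD, n = 3 each). Its 24 h component gave an adjusted p of 0.0820 by edgeR, and DESeq2 on the 22 libraries called it. Ppt1 ranged from 206 ± 15.0 CPM at 9 h to 236 ± 0.472 CPM at 6 h (n = 2 at 6 h), and Ppt2 from 29.0 ± 2.14 at 16 h to 35.8 ± 2.04 at 1 h. Gm20460 shares 36.6% of the exonic bases of Ppt2 on the same strand.

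None of the 14 glycan genes passed a test over time by edgeR in either set of libraries. DESeq2 on the 22, which also called more of all genes than edgeR, called Man2b1 and Ids over time. Gaa was among the steadiest, with 379 CPM at the lowest, 418 at the median and 469 at the highest of the 22 libraries and a log2 range over time means of 0.16. Man2b1, which trims mannose from glycoproteins, came closest, with 213 ± 5.16 CPM at 9 h and 173 ± 14.6 CPM at 0 h (SD, n = 3 each) and an adjusted p over time of 0.0529 (called in 5 of 29 alternatives). Ids, which removes sulfate from heparan and dermatan sulfate, had a different order, with 221 ± 18.7 CPM at 16 h and 178 ± 15.5 CPM at 9 h (adjusted p = 0.0612, called in 8 of 29 alternatives). Galns had the widest log2 range of the group at 0.44, with 16.8 CPM at 15 h (n = 2) and 12.3 CPM at 1 h (n = 3), and an adjusted p of 0.240. Gusb had 61.3 ± 1.88 CPM at 9 h and 48.8 ± 2.21 CPM at 0 h (adjusted p = 0.102). The log2 range of the other 9 ran from 0.14 (Fuca1) to 0.30 (Arsb), with Neu1, Idua, Sgsh, Manba, Aga, Naglu and Glb1 at 0.15 to 0.26. Arsb shares 39.9% of its exonic bases with Gm26527 and Sgsh 21.6% with Card14, both on the opposite strand.

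None of the 8 sphingolipid genes passed by edgeR either. DESeq2 on the 22 libraries, with more calls over all genes, called Psap, Hexa and Gla over time and Smpd1 for the 24 h component. Psap had 5724 CPM at the lowest, 6727 at the median and 7363 at the highest of the 22 libraries, and its highest and lowest time means were 7102 ± 194 CPM at 16 h and 6300 ± 499 CPM at 1 h (SD, n = 3 each). Hexa came closest, with 229.9 ± 12.0 CPM at 9 h (n = 3) and 187 ± 16.1 CPM at 6 h (n = 2) and an adjusted p over time of 0.0574 (called in 7 of 29 alternatives, down to 0.0115). Gla had an adjusted p of 0.0750, with 31.8 ± 0.486 CPM at 15 h (n = 2) and 39.1 ± 3.81 CPM at 5 h (n = 3). Smpd1 had the opposite order of Hexa at 9 h, with its lowest mean of 381 ± 17.3 CPM there and its highest of 444 ± 27.6 CPM at 0 h (adjusted p = 0.228). The log2 range of Gm2a, Asah1, Galc and Arsa was 0.19 to 0.32. Hexa shares 12.8% of its exonic bases with Tmem202 and Arsa 18.8% with C230037L18Rik on the opposite strand.

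The 4 protein genes did not pass by edgeR. DESeq2 on the 22 libraries, with more calls over all genes, called Grn and Tpp1 over time and Scpep1 for the 24 h component. Lgmn had 168 CPM at the lowest, 185 at the median and 203 at the highest of the 22 libraries. Grn had 201 ± 9.14 CPM at 9 h (n = 3) and 159 ± 19.4 CPM at 6 h (n = 2), with an adjusted p over time of 0.0636 (called in 6 of 29 alternatives). Scpep1 was lowest at 9 h with 99.7 ± 5.62 CPM and highest at 0 h with 120 ± 2.49 CPM (SD, n = 3 each), and its 24 h component gave an adjusted p of 0.0879. Tpp1 had 419 ± 13.95 CPM at 5 h and 358 ± 20.8 CPM at 3 h.

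Night (the mean of 15 h and 16 h) was set against day (the mean of 1, 3, 5, 6 and 9 h). In the 22 libraries, 1 of 35 genes differed (4.63% of all genes tested did), lower at night (1.89% of all) and none higher (2.75% of all). That gene was Lipa, with 128 CPM at the lowest, 134 at the median and 148 at the highest of 5 night libraries, against 131, 153 and 166 CPM in 14 day libraries. The groups overlapped, and its log2 difference was -0.16 (SE 0.05, edgeR adjusted p = 0.0411). The call held in 8 of 22 repeats that left out 1 library and the adjusted p reached 0.220. With all 24 libraries no gene of the set was called at night against day by edgeR, DESeq2 or limma-voom (5 of 35 at an unadjusted p under 0.05, against 17.8% of all genes), while by adjusted p 0.88% of all genes were higher and 0.509% lower.

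Values of the next genes in the 22 libraries also overlapped between night and day. Naglu had 80.5 CPM at the lowest, 84.8 at the median and 90.7 at the highest of the night libraries, against 84.1, 92.5 and 104 CPM in the day libraries (log2 difference -0.17, SE 0.05, adjusted p = 0.0662). Pla2g15 had 30.3, 33.7 and 41.3 CPM at night, against 32.7, 39.8 and 47.1 CPM by day (-0.17, SE 0.06, adjusted p = 0.122). Of the 35 genes, 27 had a negative log2 difference (77.1%), against 52.0% of all genes tested, with a median of -0.04 against -0.01. In the 24 libraries 20 had one (57.1% against 50.9% of all). By substrate, the negative differences in the 22 libraries were in 8 of 14 glycan, 7 of 8 sphingolipid, 4 of 5 lipid, 4 of 4 protein and 4 of 4 phosphate and nucleic acid genes. The standard error of a single gene was 0.04 to 0.09. With all 24 libraries the lowest p-values belonged to Lipa (-0.17, SE 0.06, adjusted p = 0.170), Pla2g15 (-0.18, SE 0.08, 0.236) and Manba (-0.15, SE 0.07, 0.250). Manba had 30.9, 36.9 and 40.5 CPM at the lowest, median and highest of 6 night libraries, against 36.8, 39.5 and 46.8 CPM in 15 day libraries.

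**Figure D4:**
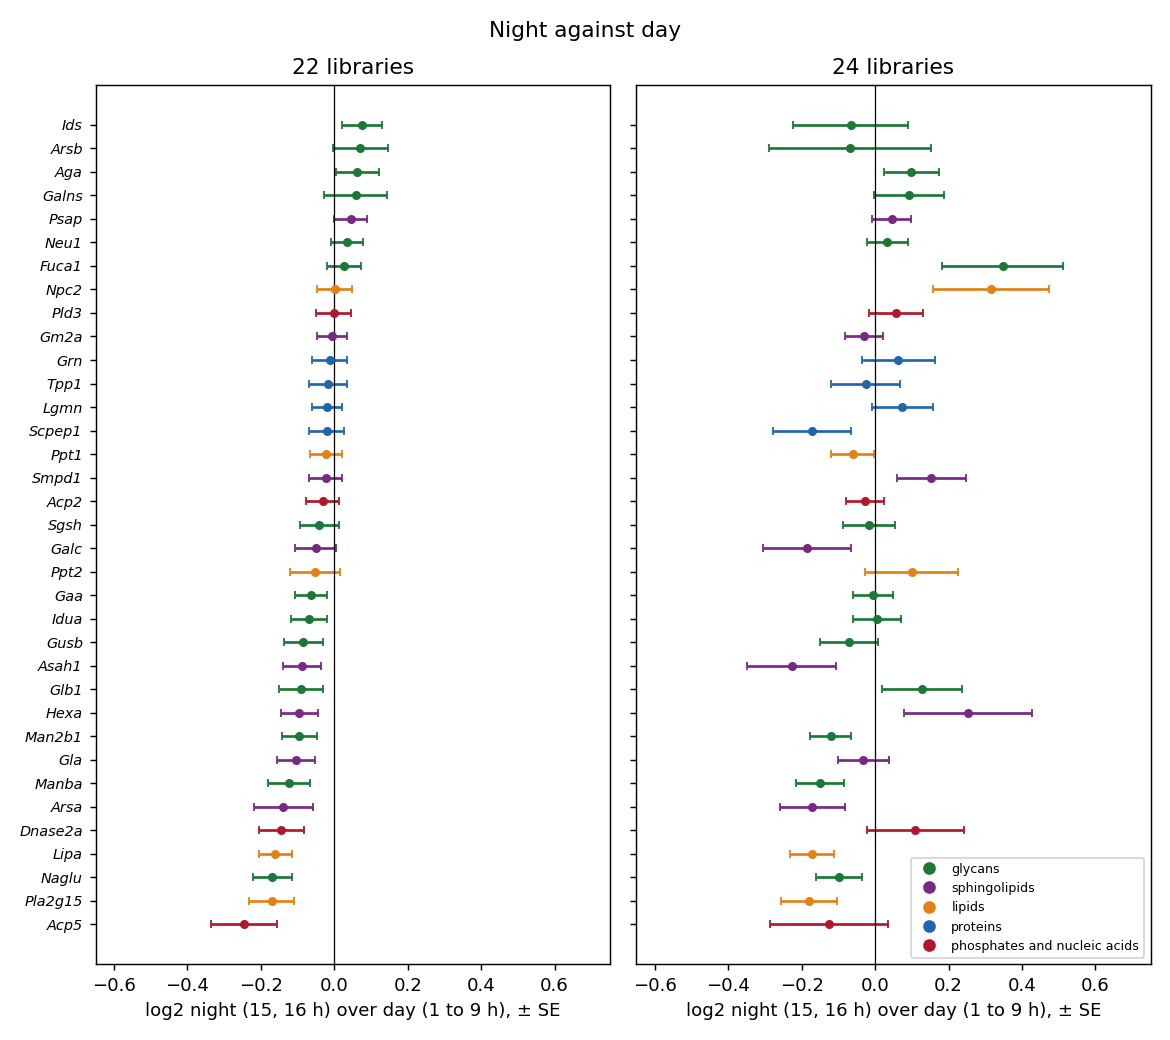
Log2 difference of night (15 and 16 h) over day (1 to 9 h) with its standard error for each of 35 genes, in 22 libraries (left) and 24 libraries (right), coloured by substrate. In the 22 libraries 27 of 35 points lie below 0 and Lipa (-0.16) is the single call, and in the 24 libraries the error bars are wider and no gene is called.

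The 2 libraries that stood apart differed from their time mates in many of these genes, in both directions. In mouse 3 of 15 h, 20 of 35 genes were above the mean of the other 2 mice, and the library was the highest of all 24 for 15 genes and the lowest for 10. These directions depend on the TMM scaling of the library. The 35 genes had their lowest share of counts there, 0.997%, but their highest summed level, 13682 CPM, against 10265 to 12340 CPM in the 22 libraries. Directions without this scaling were not counted. Hexa (log2 1.68), Fuca1 (1.58), Npc2 (1.54) and Dnase2a (1.25) were over 2-fold higher there, and Arsb (-2.21), Ids (-1.65), Asah1 (-1.27), Galc (-1.25) and Scpep1 (-1.06) over 2-fold lower. Npc2, for example, had 1606 CPM in mouse 3 of 15 h, against 539.8 and 566 CPM in the other 2 mice. In mouse 3 of 6 h, 19 of 35 genes were above the other 2 mice, with Acp5 (1.07) over 2-fold higher and Arsb (-1.42) over 2-fold lower. Gene length moved with these differences. Of the 17 genes shorter than the median of 3474 bases, 13 were higher in mouse 3 of 15 h, against 7 of the 18 others, and for mouse 3 of 6 h the numbers were 13 and 6. The median difference of the 35 genes in mouse 3 of 15 h was 0.25 on the log2 scale, against -0.17 over all genes tested. The counts of genes that were higher, extreme or split by length were not made over all genes tested, so they are not a trait shown for this set. What set these libraries apart was not tested.

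**Figure D5:**
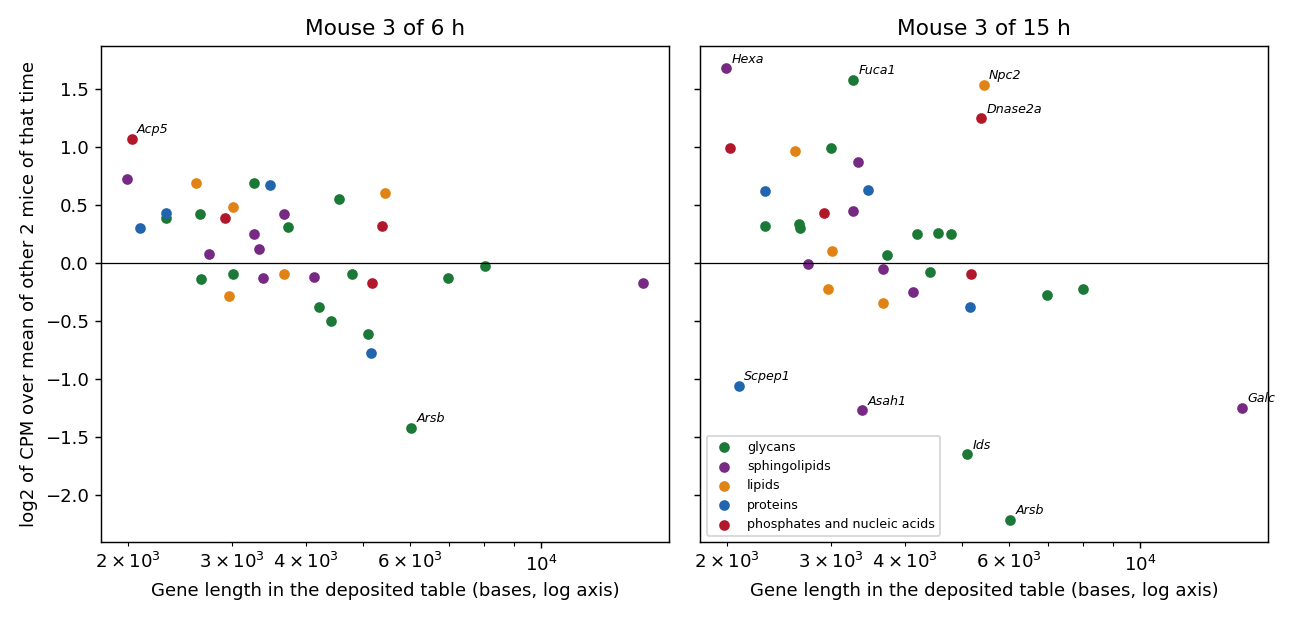
Log2 of CPM over the mean of the other 2 mice of the same time, for mouse 3 of 6 h (left) and mouse 3 of 15 h (right), by deposited gene length (log axis); each point is 1 gene, coloured by substrate. In mouse 3 of 15 h the values run from -2.21 (Arsb) to 1.68 (Hexa), and genes named are over 2-fold from the other mice.

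Other lysosomal genes gave the setting for these counts. Of 12 cathepsin genes, the proteases left out of the set, 4 varied over time in the 22 libraries (Ctsz, adjusted p = 0.0107, Ctss, 0.0184, Ctsh, 0.00259, and Ctse, 0.0129), where 15.6% of all genes did. Ctsa, which also protects Neu1 and Glb1 in a complex, and Ctss had a 24 h component (6.12% of all genes), with log2 ratios of peak to trough of 0.23 and 0.52, fitted peaks at 8.31 h and 8.88 h and adjusted p-values of 0.0309 and 0.0406. Of 25 further hydrolases, 5 varied over time (Arsg, Plbd1, Abhd6, Hyal2 and Prcp), near the same 15.6% of all genes. Arsg, a sulfatase of heparan sulfate, also had a 24 h component with a fitted peak at 1.4 h (adjusted p = 0.0294) and was lower at night (-0.19, adjusted p = 0.0358). Of 21 genes for the sorting of enzymes to lysosomes, Ap1s1 (adjusted p = 0.0362) and Nagpa (0.0166) varied over time, below that share of all genes, and the sorting receptor Sort1 was higher at night (0.12, SE 0.04, adjusted p = 0.0480). None of the 4 MiT/TFE factor genes passed in the 22 libraries, with an adjusted p over time of 0.0582 for Tfeb and 2, 1 and 1 genes at an unadjusted p under 0.05 over time, for the 24 h component and at night. With all 24 libraries no gene of these lists was called. In the edgeR tests of the 24 and 22 libraries, none of the 7 genes whose promoter window holds an E-box was called, and of the 5 with an M-box Acp5 was. In the 22 libraries the shares of all genes called were 15.6% over time, 6.12% for the 24 h component and 4.63% at night. With 7 and 5 genes, these counts do not set either group apart from all genes or from the other. Among the alternatives on the 22 libraries, Naglu was called at night in 4 of 28, and Gla, Grn and Tpp1 were called over time in 3, 6 and 2 of 29.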

How the data were processed

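The authors deposited 1 table of read counts for 24 libraries and all genes, not normalized, with gene lengths and coordinates. STAR, HTSeq and mm10 appear in the submitters' processing notes, with versions, settings and annotation not given in the sources used here. Per the labels' protocols, total RNA went into a kit that does not mark strand. Genes with enough counts were kept with filterByExpr (minimum count 10), leaving 18065 genes for 24 libraries and 18388 for 22. Counts were scaled by TMM and fitted with edgeR 4.0.16 (quasi-likelihood, robust) in R 4.3.3. Tests were an F test over times, an F test of a cosine and a sine with a 24 h period, and night minus day. P-values were adjusted by Benjamini-Hochberg over the whole table of tested genes, with calls made under 0.05. Night minus day used 15 h and 16 h against 1 to 9 h and left out 0 h. No mouse was sampled after 16 h, or from 9 h until 15 h, so the 24 h test is of a shape over 1 day. Levels are CPM scaled over 24 libraries. DESeq2 1.42.0 and limma-voom (limma 3.58.1) were alternatives, beside other scaling, no filter, a replicate block, left-out times and each library left out.

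The gene set, the lists and the split into 24 and 22 libraries were chosen with earlier results of these data known. All 35 genes were given with a level and a range. Values of single libraries, or the lowest, median and highest, were given for genes called in any test, for the 3 with the lowest p in tests with fewer than 3 calls, and for the highest level per length in each substrate group. Genes of other lists were named where called, and Tfeb, Npc2 and others near the threshold were named after their values were seen. On simulated counts with 100 genes at a log2 peak-to-trough ratio of 1, 24% (24 libraries) and 54% (22 libraries) were recovered by the test over time, and 45% and 64% by the 24 h test. The median ratio of the 35 genes was 0.15 in the 22 libraries, and recovery of changes that small was not simulated. All 276 pairs of libraries differed by more than sampling noise (lowest chi-square per degree of freedom 5.63). Coordinates and overlaps were checked against GENCODE vM21 (GRCm38), where all 35 genes matched by identifier, and 14 shared exonic bases with another gene.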

Additional observations from a re-analysis of the deposited data

Results flagged for a closer look

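All 35 genes and their summed level were checked over the 6 night libraries, and for 16 genes and the sum mouse 3 of 15 h lay far from the other 5. The measure is the gap to the nearest library as a share of the whole range, which was above Dixon's 95% critical value for 6 samples in each case. Mouse 3 of 15 h was the highest for 11 genes, with shares of 0.956 for Hexa and for Fuca1, 0.949 for Npc2, 0.927 for Glb1, 0.920 for Smpd1, 0.877 for Dnase2a, 0.843 for Acp5 and for Lgmn, 0.807 for Ppt2, 0.749 for Grn and 0.711 for Pld3. It was the lowest for 5, with 0.772 for Scpep1, 0.765 for Arsb, 0.761 for Asah1, 0.722 for Ids and 0.666 for Galc. For the summed CPM of the 35 genes it was the highest, with 0.684, while their share of counts before TMM scaling was the lowest there (0.997%). Chance alone passes the value in about 1 of 20 groups. The flags were not counted over all genes, and they all rest on this library, which had already been set apart in the same data. They are not independent of each other and add no support to that choice.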

How the results depend on the processing

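With 24 libraries, where no gene of the set was called, the number called over time was 4 in the 22 libraries, 2 with DESeq2 and 0 to 1 when 1 library was left out (1, Acp5, without mouse 3 of 15 h). For the 24 h component it was 4 in the 22 libraries, 2 with DESeq2, 1 (Acp5) without 15 h and 16 h, and 0 to 3 with 1 library left out (Pld3, Dnase2a and Acp5 without mouse 3 of 15 h). At night against day it was 1 in the 22 libraries and 0 in each repeat without 1 library. In the 22 libraries, the 4 over time became 11 with DESeq2, 7 with no filter, 7 without 0 h, 2 without 15 h and 16 h, and 2 to 9 with 1 library left out (2 when mouse 1 of 9 h and 9 when mouse 3 of 0 h was left out). The 4 with a 24 h component became 7 with DESeq2, 2 without 0 h and 2 without 15 h and 16 h, and stayed at 4 in each repeat without 1 library. The 1 at night became 2 with DESeq2 (Lipa and Naglu), 0 with RLE scaling, 0 with no filter, and 0 to 2 with 1 library left out. Night against day has no value without 15 h and 16 h.

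Over all genes with 24 libraries, the 195 over time became 1930 with DESeq2, 98 without 0 h, 499 without 15 h and 16 h, 2870 in the 22 libraries, and 118 to 1215 with 1 library left out (854, 864 and 1215 without mouse 1, 2 or 3 of 15 h, 309 once mouse 3 of 6 h was left out, and 118 to 129 without mouse 2 of 0 h, 1 or 3 of 3 h, 1 of 5 h, 1 of 9 h, or 1 or 3 of 16 h). The 302 with a 24 h component became 763, 138 and 1126 with DESeq2, without 0 h and in the 22 libraries, and 203 to 789 with 1 library left out (789 without mouse 3 of 15 h). The 251 at night became 651 with DESeq2, 143 with no filter, 852 in the 22 libraries, and 123 to 1172 with 1 library left out (1100, 1172 and 468 without mouse 1, 2 or 3 of 15 h, 162 when mouse 1 of 1 h was left out, and 123, 150 and 138 once mouse 1, 2 or 3 of 16 h was left out). In the 22 libraries, the 2870 over time became 4416 with DESeq2, 4955 with no filter, 1811 without 15 h and 16 h, and 2211 to 3314 with 1 library left out. The 1126 became 1725 with DESeq2, 725 without 0 h, 577 without 15 h and 16 h, and 884 to 1208 with 1 library left out. The 852 became 1477 with no filter and 364 to 954 with 1 library left out (364 and 379 without mouse 1 or 2 of 15 h). The cause of these shifts was not tested.

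The night over day difference of Pld3 was 0.06 (log2) in the 24 libraries, -0.026 to 0.103 with 1 library left out (-0.026 when that was mouse 3 of 15 h) and -0.0018 in the 22 libraries, where it changed sign with RLE scaling (0.0046), DESeq2 (0.0047), no filter (0.0054), without 0 h (0.0018) and in 10 of the repeats without 1 library (-0.043 to 0.0405), none of them a call. That of Dnase2a was 0.11 in the 24 libraries, -0.14 in the 22, and -0.16 to 0.223 with 1 library left out (-0.16 when that was mouse 3 of 15 h).

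Mice share only a replicate number: deviations of same-numbered libraries from their time means correlated at 0.0148 on average (-0.369 to 0.372 over 71 pairs), other pairs at -0.00753, and 11 of 22 libraries correlated best with their own number. With a replicate block the 35 genes gave 0, 1 (Acp5) and 0 calls in the 24 libraries and 4, 4 and 1 in the 22, and all genes gave 143, 266 and 226 and 2660, 1022 and 793.

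With 2 or 3 mice per time, differences of about the SE of a single gene, 0.04 to 0.09 on the log2 scale at night against day, could not be told from 0. Libraries of a time are separate mice per the labels, and p-values weigh differences against the spread between these mice. In the 24 h test that spread also holds the departure of the time means from the fitted curve.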
